A study of Homo sapiens with 3 samples.

Results

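The messenger RNAs of the human bile duct cancer (cholangiocarcinoma) line QBC-939 were compared between 1 RNA sequencing library labelled oe-miR-182-5p, that is overexpressing the microRNA miR-182-5p, and 1 library of the same line labelled oe-NC, its control. The submitters' genotype label is WT for both. Only the microRNA samples carry "mim" in their titles, and the labels do not say how the overexpression was done. Another library, labelled oe-miR-183-5p, shares this control and is given beside single genes only. A value "under miR-182-5p", "under NC" or "under miR-183-5p" is the value of the library with that label. The genes described are those with a protein-coding transcript, at least 200 counts in 1 of the 2 libraries, and no other gene of the table lying over them on the same strand. These were 8400 of the 30923 genes in the table. Of 15591 coding genes, 11353 reached the count minimum and 2953 of those were left out for an overlap. Of the 8400, 8182 had at least 200 counts in both libraries. The other 157 reached it under miR-182-5p only and 61 under NC only; of these 139 were called higher and 41 lower by the rule given below, a direction that the minimum itself favours. On the opposite strand, 3835 of the 8400 (45.7%) lie over another gene, and since the handling of strand in the counting is not given in the sources used here, reads of such pairs may not have been told apart.

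MicroRNAs are short RNAs that an argonaute protein loads and uses as guides. The guide pairs through its seed, the stretch near its 5′ end, mostly with matching sites in the 3′ untranslated regions (UTRs) of messenger RNAs, which lowers the stability or the translation of those messengers. miR-182-5p is made from the same gene cluster as miR-96 and miR-183 and is often abundant in epithelial tumours. Its mature sequence, from RefSeq (GRCh38.p14, minus strand, chr7:129770447-129770470), is shown with the seed, positions 2 to 8, in capitals, because all site counts below derive from it.
hsa-miR-182-5p: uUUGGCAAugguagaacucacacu

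A seed match is the run TTGCCAA, the reverse complement of those positions, searched on the sense strand of the longest 3′ UTR of each gene in GENCODE release 29 (GRCh38). The following windows hold such matches, in capitals, in genes whose values are taken up below. FGD4 and CPPED1 are among the 15 lowest ratios, RAC1, HPGD and FOXO3 are targets reported for this microRNA, and RGS17 is a reported target that holds 4 matches.
FGD4 (chr12:32640921-32640927, plus strand): agatatacctccatgTTGCCAAa
CPPED1 (chr16:12661146-12661152, minus strand): tcttttgagaaaaggTTGCCAAa
RAC1 (chr7:6402754-6402760, plus strand): tgttcagattaagagTTGCCAAa
HPGD (chr4:174492077-174492083, minus strand): TTGCCAAt
FOXO3 (chr6:108679864-108679870, plus strand): tacagagaaaaccctTTGCCAAa
RGS17 (chr6:153011365-153011371, minus strand): acacaaaacaatgaaTTGCCAAa
In all but HPGD the match is followed by an A, the longer form of the site. In HPGD the match starts at the first base after the stop codon.

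The 2 libraries held 61709874 (miR-182-5p) and 64516706 (NC) counts in genes. Levels are given as CPM, counts scaled to a common library total, and a ratio is the CPM under miR-182-5p over that under NC. Brackets hold exact (Clopper-Pearson) 95% intervals that cover counting error only. Since each group is a single library, no replicate spread is known and no test between conditions was made. Mitochondrially encoded genes took 16.7% of counts under miR-182-5p and 13.5% under NC, which lowers the CPM of every nuclear gene by 0.056 on the log2 scale. All 15 bile duct epithelium markers had more than 1 CPM under NC and summed to 6656 CPM under miR-182-5p and 7673 CPM under NC. KRT8 (2772 and 3423 CPM) and KRT18 (1623 and 2099 CPM) made up most of both sums. Other markers went the other way, among them CFTR with 126 and 89.0 CPM. Of the 11 markers among the genes described, 5 had ratios above 1 and 6 below. Of markers for other cells, 5 fibroblast genes with rows summed to 24.0 and 14.9 CPM, of which COL1A1 made 19.4 and 10.4 CPM. The sums were 2.37 and 1.81 CPM for 3 endothelial genes, and 1518 and 1601 CPM for 5 leukocyte genes, nearly all of it LYZ. Their part in the results was not tested. In RNA from a whole culture, fewer cells of a kind and less RNA per cell cannot be told apart. The level of miR-182-5p itself was not analysed here.

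Most messengers differed little between the libraries. The median log2 ratio over the 8400 genes was -0.04 (SD across genes 0.33), and 71.9% of the genes had a ratio above 0.8 and below its reciprocal. A gene is called lower when its ratio is at most 0.8 and its counting interval lies below 1, and higher by the mirror of that rule, a ratio of at least 1 over 0.8 with an interval above 1. "Higher" and "lower" without a size refer to these calls. By that rule 1133 genes (13.5% of those compared) were higher under miR-182-5p and 1226 (14.6%) lower. At 1.5-fold, 369 genes (4.39%) were higher and 134 (1.6%) lower, and at 2-fold 66 (0.786%) were higher and 12 (0.143%) lower. Of the 66, 26 had at least 200 counts in both libraries. The calls therefore leaned down at the mildest size and up at the larger ones. Of all calls at this mildest size, 48.0% were higher, and this share depended on the scaling. It was 33.4% with edgeR's TMM factors, 32.5% with DESeq2's size factors, 59.1% after centring on the median gene and 63.1% with library totals that leave out mitochondrially encoded genes. DESeq2's size factors came out as 1 for both libraries, so that setting compares unscaled counts and leaves the difference in library totals in. Counts of higher and lower members below are read against 13.5% and 14.6%. Where a family's count is followed by a range over the scalings, the range holds the lowest and highest count among 6 scales: CPM, these 4 and the deposited FPKM.

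**Figure D1:**
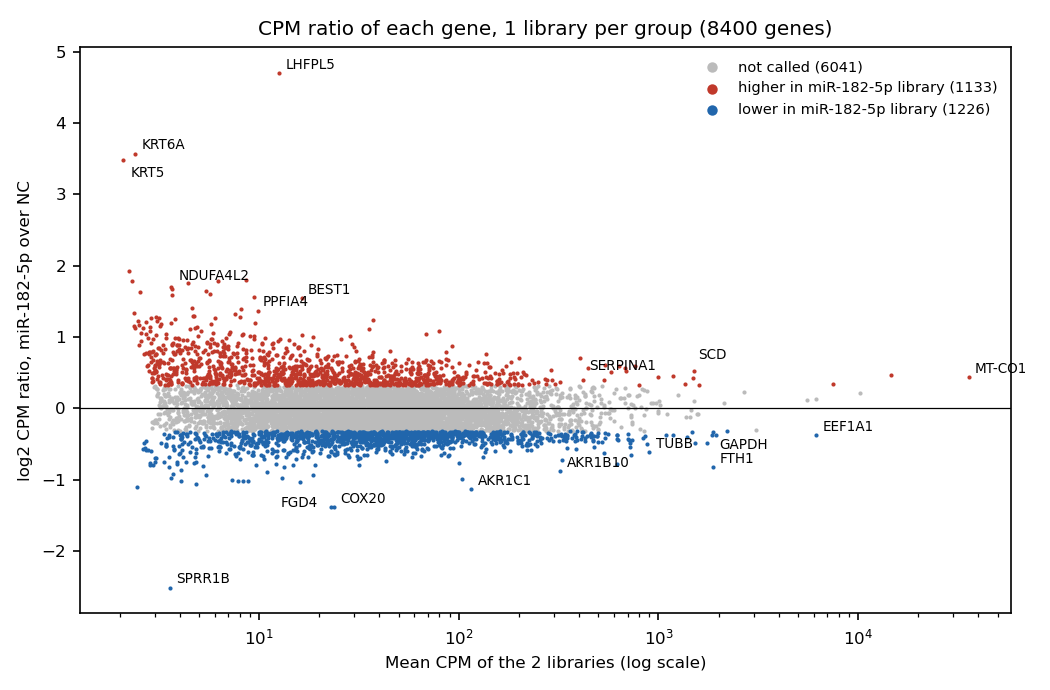
Each point is 1 of the 8400 genes, with its mean CPM of the 2 libraries (log scale) against its log2 CPM ratio, miR-182-5p over NC. Red points are the 1133 genes called higher and blue points the 1226 called lower. Low-level genes spread most widely above the line, and most genes of high level lie on or below it, with MT-CO1, SCD and SERPINA1 among those above.

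The ratio moved with the length of the transcript. In the shortest quartile of transcript length (270 to 2187 bases) 28.5% of genes were lower and 9.71% higher, with a median log2 ratio of -0.18. In the longest quartile (5153 to 27748 bases) 4.62% were lower and 17.3% higher, with a median of 0.07. Level moved with the ratio too: in the lowest quartile of mean CPM 26% of genes were higher, and in the top quartile 7.62%. The 396 genes both short and in the top quartile of level had a median of -0.26 with 40.9% lower and 2.78% higher, and the 378 genes both long and in the lowest quartile had a median of 0.18 with 7.14% lower and 32.8% higher. By GC content the quartile medians were -0.03, -0.06, -0.07 and -0.01, with 18.5% of genes higher in the quartile of highest GC and 10.9% to 12.6% in the others. Across the 8398 genes with a length, length and ratio had a Spearman rank correlation of 0.31, a description across genes, which are not replicates. Families of short or long genes are described below with this in view, and the part of length in any family's values was not tested.

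**Figure D2:**
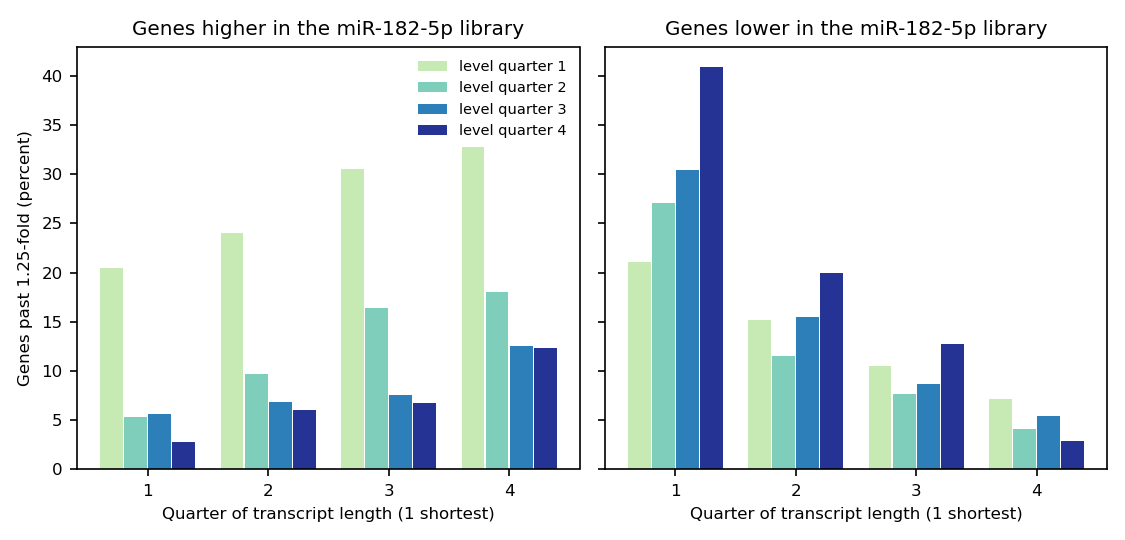
Percent of genes called (vertical axis) by quartile of transcript length (horizontal axis) and quartile of mean CPM (colour), for genes higher (left) and lower (right) under miR-182-5p. The tallest bar on the right, 40.9%, is that of the shortest genes in the top quartile of level, and the tallest on the left, 32.8%, that of the longest genes in the lowest.

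The lowest median of the 75 gene lists was that of genes regulated by NRF2, the transcription factor that switches on antioxidant and detoxifying enzymes. Of 25 members, 20 (80%) were lower and 1 higher, with a median log2 ratio of -0.52; 5 further genes of the list overlap another gene and 1 had too few counts. This list had been drawn with results of these libraries known, so its direction is no independent evidence. AKR1C1, an aldo-keto reductase that acts on steroids and carbonyls, had 72.5 CPM under miR-182-5p and 158 CPM under NC, a ratio of 0.458 (0.442 to 0.474). AKR1C3 had 69.2 and 138 CPM, a ratio of 0.501. These enzymes have near-identical copies that share reads, so the split between them is uncertain. Their more distant relative AKR1B10 had 228 and 418 CPM, a ratio of 0.545, and ALDH3A1, an aldehyde dehydrogenase, 10.5 and 21.5 CPM, a ratio of 0.490.

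Both ferritin chains, which store iron, were lower. FTH1 had 1359 CPM under miR-182-5p and 2411 CPM under NC (ratio 0.564, 0.559 to 0.569), and FTL had 454 and 784 CPM (ratio 0.580). Both have processed copies elsewhere in the genome. The glutathione peroxidase GPX2 went from 644 CPM under NC to 418 CPM, and the quinone reductase NQO1 from 416 to 282 CPM. In contrast ABCC3, an exporter of conjugated bile acids and drugs, had 678 CPM against 476 CPM under NC (ratio 1.42). The cystine importer SLC7A11 had nearly the same level, 311 and 324 CPM. Under miR-183-5p AKR1C1 stood at 84.7 CPM, FTH1 at 1806 CPM and GPX2 at 500 CPM, each between the other 2 libraries. Of the NRF2 members, 13 of 25 belong to the shortest quartile of transcripts. Among 34 peroxiredoxins, thioredoxins and glutathione enzymes, 15 were lower and 1 higher (median -0.26).

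The pentose phosphate pathway, which makes NADPH and ribose from glucose, shares several members with the NRF2 list. All 8 of its genes were measured and all had ratios below 1; 6 were lower (median -0.50). TALDO1 (transaldolase) had 144 CPM under miR-182-5p and 217 CPM under NC, a ratio of 0.663, and TKT (transketolase) 478 and 607 CPM, a ratio of 0.788.

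**Figure D3:**
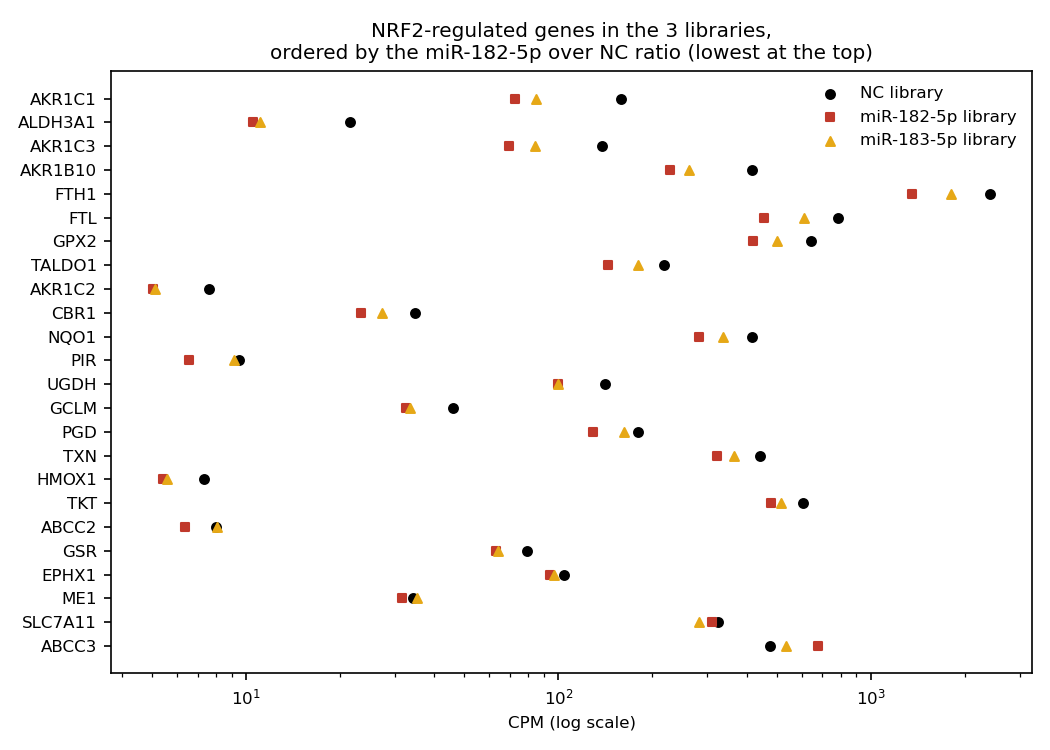
CPM on a log scale (horizontal axis) of 24 NRF2-regulated genes (rows, lowest ratio at the top) in the NC (circles), miR-182-5p (squares) and miR-183-5p (triangles) libraries. The square lies left of the circle in every row but that of ABCC3, at the bottom.

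NRF2 binds the antioxidant response element. A core of that element, TGACNNNGC on either strand, was looked for in RefSeq promoters (GRCh38.p14) of 300 bases, 250 before to 50 after the gene's start. It was present in 6 of 17 members with a promoter in the table (35.3%), in 1055 of 6810 promoters of the genes compared (15.5%) and in 3702 of all 27305 promoters (13.6%). The windows below show where the core, in capitals, stands in 3 of these genes, each written on the gene's own strand. A match is a description of the letters and not a bound site.
GPX2 (chr14:64942859-64942867, minus strand): acctgtttttGCTAAGTCAtcctggggat
GCLM (chr1:93909456-93909464, minus strand): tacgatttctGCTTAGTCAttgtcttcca
ME1 (chr6:83431180-83431188, minus strand): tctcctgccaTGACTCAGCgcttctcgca
The ratio was 0.649 for GPX2, 0.708 for GCLM, the regulatory subunit of the enzyme that starts glutathione synthesis, and 0.919 for ME1, the cytosolic malic enzyme. In ME1 the core overlaps TGACTCA, a form of the AP-1 site. The same core thus stands before genes that were lower and before one that was not called.

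Ribosomal proteins had medians below that of all genes. All 43 cytosolic ribosomal proteins compared had ratios below 1 and 30 of them (69.8%, 21 to 36 members over the scalings) were called lower, with a median of -0.37. A further 38 ribosomal protein genes lie over another gene and were not compared. RPL7 had 387 CPM under miR-182-5p and 561 CPM under NC (ratio 0.690), and RPS24, the member nearest to 1, had 554 and 579 CPM (ratio 0.956). Ribosomal proteins have many processed copies in the genome, so single values are uncertain. They are also short and highly expressed: 33 of the 43 belong to the shortest quartile, where 28.5% of all genes were lower, and their median level was 402 CPM. Of all genes both short and in the top quartile of level, 40.9% were lower. Of 59 mitochondrial ribosomal proteins, 26 were lower (19 to 45 over the scalings) and none higher (median -0.31, 49 of 59 in the shortest quartile), from MRPL15 at 0.653 to MRPS25 at 1.13.

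Ribosome assembly factors are longer, with 15 of 34 in the shortest quartile, and 17 were lower and none higher (median -0.32). NOP16, a nucleolar protein of the large subunit, had 32.5 CPM under miR-182-5p against 54.3 CPM under NC, a ratio of 0.599. RRS1 had 24.5 and 39.8 CPM, and NHP2, a core protein of the snoRNPs that pseudouridylate ribosomal RNA, 66.6 and 103 CPM. Genes with EIF symbols, mostly initiation factors, had 9 lower of 36 and none higher, and 4 to 15 lower over the scalings. Aminoacyl-tRNA synthetases, which charge transfer RNAs, had 6 lower of 25 and none higher, and 1 to 8 lower over the scalings. The lowest counts of both came with totals that leave out mitochondrially encoded genes. The elongation factor EEF1A1 had the largest loss in CPM of any gene, from 6971 CPM under NC to 5397 CPM (ratio 0.774), and it too has near-identical copies.

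Protein folding and breakdown did not move as one. Of 25 cytosolic chaperones, 13 were lower (7 to 17 over the scalings) and none higher (median -0.32, 9 of 25 in the shortest quartile), among them the prefoldin subunit PFDN1 (26.8 against 42.2 CPM, ratio 0.634), the co-chaperone FKBP4 (ratio 0.703) and CCT4 of the TRiC chaperonin (ratio 0.731). Of 36 proteasome subunits, 16 were lower (11 to 25 over the scalings) and none higher (median -0.30, 22 of 36 in the shortest quartile), with PSMD10 at 0.703 and PSMB7 at 0.713. The enzymes that attach or remove ubiquitin were mixed. Ubiquitin conjugating enzymes were lower in 7 of 27 and higher in none, TRIM proteins lower in 4 of 31 and higher in 9, F-box proteins lower in 5 of 32 and higher in 3, and ubiquitin-specific proteases lower in 4 of 33 and higher in 2. The medians of the last 3 groups, 0.04, -0.02 and -0.05, changed sign with the scaling. Of the unfolded protein and integrated stress response genes 3 of 30 were lower and none higher, and their median of -0.01 changed sign with the scaling. The 3 that were lower were SDF2L1, a chaperone of the endoplasmic reticulum, CHAC1, which degrades glutathione, and MTHFD2, a mitochondrial folate enzyme.

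Nuclear and mitochondrially encoded genes of respiration had medians on opposite sides of 0. Nuclear genes for respiratory complex I were lower in 5 of 24, for complexes II to IV in 7 of 21 and for ATP synthase in 5 of 12, with 1, 1 and 0 higher and medians of -0.20, -0.20 and -0.31. Over the scalings these counts were 3 to 9, 5 to 9 and 3 to 8. In the shortest quartile of transcripts, where 28.5% of all genes were lower, stand 19 of the 24, 15 of the 21 and 9 of the 12, and the share lower in complex I, 20.8%, was below that. All 8 mitochondrially encoded proteins compared had ratios above 1, and 4 were called higher (3 with TMM or DESeq2 factors). MT-CO1, a catalytic subunit of cytochrome c oxidase, had 41165 CPM under miR-182-5p and 30313 CPM under NC (ratio 1.36), MT-CO2 had a ratio of 1.38, and MT-ND5 of complex I 8393 and 6614 CPM (ratio 1.27). These are short transcripts as well, all 8 in the shortest quartile, so they went against the length gradient of the nuclear genes. Glycolytic enzymes were lower in 5 of 10 and higher in 1 (median -0.25); the other 12 coding genes of the list overlap another gene, and with them kept 7 of 22 were lower and 3 higher (median -0.16). GAPDH had 1462 and 2043 CPM (ratio 0.716), and the pyruvate kinase PKM 1671 and 2100 CPM (ratio 0.796). Of 18 tricarboxylic acid cycle genes 5 were lower (3 to 9 over the scalings) and none higher.

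Cell cycle genes had medians below that of all genes. Of 34 replication genes 15 (44.1%) were lower, with a median of -0.28, and of 31 mitosis genes 5 (16.1%, 4 to 11 members over the scalings), with a median of -0.19; none was higher in either. In the shortest quartile of length stand 12 of the 34 and 10 of the 31. The GINS subunit GINS2 had 36.2 CPM under miR-182-5p and 54.7 CPM under NC (ratio 0.662), the clamp loader subunit RFC2 a ratio of 0.694, and the sliding clamp PCNA 188 and 265 CPM (ratio 0.709). G1 cyclins, kinases and E2F factors were lower in 5 of 21 (2 to 8 over the scalings) and higher in none. Histones, of which 57 coding genes had too few counts, were lower in 9 of 21 and higher in 2.

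Cytoskeletal genes had medians below 0. Tubulins and their folding cofactors were lower in 6 of 13 and higher in none (median -0.30, 9 of 13 in the shortest quartile), but none of the 5 that lie free of other genes on both strands was called. TUBB had 713 CPM under miR-182-5p and 1090 CPM under NC (ratio 0.654), and TUBA1B 564 and 888 CPM (ratio 0.635). Actins and actin-binding proteins were lower in 11 of 35 (6 to 16 over the scalings) and higher in none (median -0.24, 13 of 35 in the shortest quartile), with ACTG1 at 1276 and 1784 CPM (ratio 0.715) and ACTB at 1692 and 2188 CPM (ratio 0.774). Members of both families share long stretches of sequence, so reads may be split among them.

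**Figure D4:**
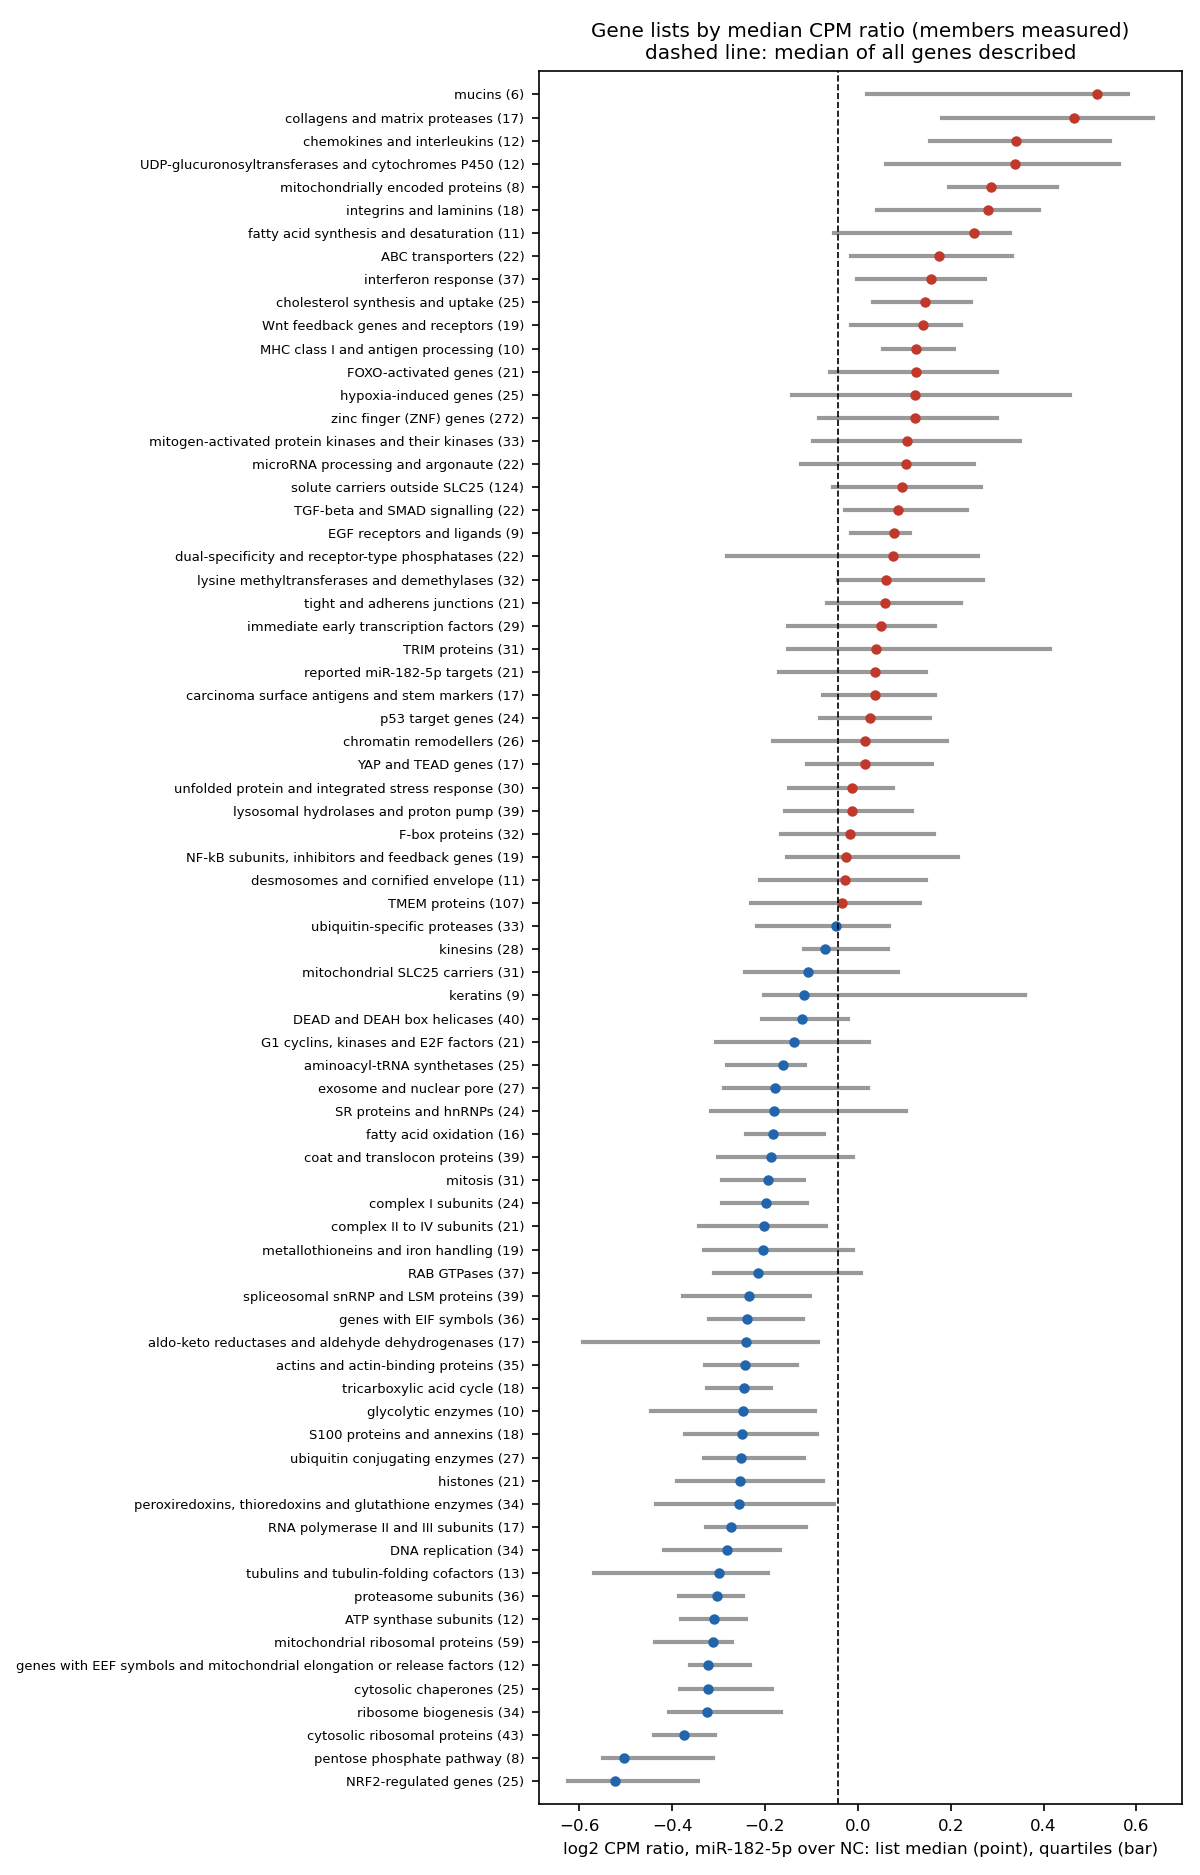
Median log2 CPM ratio, miR-182-5p over NC (horizontal axis), of gene lists with at least 5 members, with the number of members beside its name; bars span the members' quartiles, and the dashed line is the median of all 8400 genes (red points above it, blue below). NRF2-regulated genes, the pentose phosphate pathway and the ribosomal proteins lie furthest left, and mucins, collagens and matrix proteases furthest right, and 16 lists in the middle change sign with the scaling.

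Towards the other end stood some lists of cell surface and matrix genes, but not all surface lists. Carcinoma surface antigens and stem markers were higher in 2 of 17 and lower in 2 (median 0.04). Tight and adherens junction genes were higher in 4 of 21 and lower in 1 (median 0.06). The medians of both lists changed sign with the scaling. Of 17 collagens and matrix proteases, 10 (58.8%) were higher and none lower, with a median of 0.46. In the longest quartile of transcripts, where 17.3% of all genes were higher, stand 8 of the 17. Their median level was 15.2 CPM, within the lowest quartile of level, in which 26% of all genes were higher. COL1A1, a chain of the main fibrillar collagen, had 19.4 CPM under miR-182-5p and 10.4 CPM under NC (ratio 1.86, 1.69 to 2.05). ADAMTS6, a secreted metalloprotease, had 23.5 and 12.8 CPM (ratio 1.84), and the membrane-bound MMP14 a ratio of 1.67. COL1A1 is also a fibroblast marker. Of the other fibroblast genes with rows, LUM had 16 counts under miR-182-5p and none under NC, and THY1 had 3 and 0. PDGFRB had 52 and 49 counts, and VIM 211 and 239. Integrins and laminins, matrix receptors and basement membrane proteins, were higher in 7 of 18 (5 to 12 over the scalings) and lower in none (median 0.28), with LAMA5 at 815 and 549 CPM, LAMB2 at 122 and 78.8 CPM, and ITGA7 at a ratio of 1.60. Of these 18 genes, 10 belong to the longest quartile.

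Mucins, the glycoproteins of the biliary mucus and glycocalyx, were higher in 4 of 6 (median 0.51). All 4 are anchored in the membrane: MUC12 (13.4 and 7.13 CPM under miR-182-5p and NC), MUC1 (18.6 and 12.3 CPM), MUC13 (343 and 236 CPM) and MUC4 (7.44 and 5.30 CPM). The gel-forming MUC5AC went the other way, with 98.0 and 117 CPM (ratio 0.836), short of the 0.8 threshold. Of the 6 mucins, 4 belong to the longest quartile of transcripts. Under miR-183-5p MUC4 had 4.23 CPM, below NC, and MUC13 had 278 CPM, above it.

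Keratins diverged. The basal and stratified types KRT5 and KRT6A were near the detection limit under NC, at 22 and 24 counts, and had 235 and 273 counts under miR-182-5p (ratios of 11.2, 7.20 to 18.2, and 11.9, 7.83 to 18.9). Both entered the comparison through the miR-182-5p library alone, and related keratins can share their reads. KRT6A had 20 counts under miR-183-5p. The simple epithelial pair KRT8 and KRT18 was at 2772 and 1623 CPM under miR-182-5p and 3423 and 2099 CPM under NC, ratios of 0.810 and 0.773; these genes are opposite-strand neighbours that overlap. SPRR1B, a cornified envelope protein of stratified epithelia, had the lowest ratio of all, 0.175 (0.133 to 0.228), from 66 and 394 counts; it passed the minimum through the NC library alone. Of 11 desmosome and cornified envelope genes 3 were lower, SPRR1B among them, and none higher, with a median of -0.03 that changed sign with the scaling.

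Carriers of solutes differed between families. Solute carriers outside the mitochondrial family were higher in 22 of 124 (17.7%, 17 to 31 members over the scalings) and lower in 2 (0 to 8), with a median of 0.10. Of the 64 without overlap on either strand, 7 were higher and 2 lower. Mitochondrial SLC25 carriers were higher in 5 of 31 and lower in 7 (median -0.11), and ABC transporters were higher in 6 of 22 and lower in 2. Of the 22 ABC transporters, 12 belong to the longest quartile of transcripts. The cholesterol exporters ABCA1 (10.7 and 6.49 CPM, ratio 1.65) and ABCG1 (ratio 1.72) were the highest ABC members. Glucuronosyltransferases and cytochromes P450, which modify drugs and steroids, were higher in 6 of 12 and lower in 1 (median 0.34). With same-strand overlaps kept they were higher in 7 of 20 and lower in 4 (median 0.20), and with 200 counts in both libraries higher in 4 of 10 (median 0.22). Cholesterol synthesis and uptake genes were higher in 5 of 25 and lower in 2, and 21 of the 25 had ratios above 1 (median 0.15). The sterol transporters STARD4 and NPC1 were among the higher ones, with ratios of 1.37 and 1.36, and PMVK and ACAT2, at 0.750 and 0.764, were the lower ones. Fatty acid synthesis and desaturation genes were higher in 3 of 11 (2 to 5 over the scalings) and lower in 1. Their median was 0.25, and 4 of the 11 had ratios below 1. The desaturase SCD had 1774 and 1235 CPM (ratio 1.44), and ACSS2, which activates acetate, had 33.9 and 22.5 CPM (ratio 1.51). Fatty acid oxidation had 2 of 16 lower and none higher.

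Hypoxia-induced genes included several of the larger ratios. Of 25 members 10 (40%) were higher and 1 lower, with a median of 0.12. The median was 0.01 with at least 1000 counts, where 6 of 21 were higher, and 0.01 without overlap on either strand, where 4 of 15 were. NDUFA4L2, a mitochondrial protein induced in hypoxia, had 5.61 CPM under miR-182-5p, 1.75 CPM under NC and 1.51 CPM under miR-183-5p (ratio 3.20); it lies opposite SHMT2, so its reads are uncertain. PPFIA4, a liprin, had 14.1, 4.79 and 4.23 CPM in the same order (ratio 2.94), and BNIP3, a mitophagy receptor, 3.81, 1.22 and 1.45 CPM (ratio 3.11). In all 3 genes the miR-182-5p library stands alone and the other 2 lie close together. NDUFA4L2 and BNIP3 passed the count minimum through the miR-182-5p library alone. At higher levels the angiogenic factor VEGFA had 264 CPM under miR-182-5p and 200 CPM under NC, and the carbonic anhydrase CA9 55.9 and 39.7 CPM. The hypoxia factor EPAS1, itself a reported target with 2 seed matches, had 85.1 and 95.7 CPM (ratio 0.889).

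Immune mediators had medians above 0. Interferon response genes were higher in 8 of 37 (21.6%, 6 to 11 members over the scalings) and lower in none (median 0.16). RSAD2, an antiviral enzyme that also passed the minimum through the miR-182-5p library alone, had the highest ratio at 2.40, while IFIT1 (0.996) and ISG15 (0.967) were near 1. Chemokines and interleukins were higher in 6 of 12 and lower in none (median 0.34), with IL33 at 3.26 and 1.46 CPM (ratio 2.24), CCL28 at 3.79 and 2.39 CPM, and IL18 at 3.78 and 2.46 CPM. These 3 passed the count minimum through the miR-182-5p library alone; with 200 counts in both libraries 3 of 9 were higher (median 0.24). CCL28 and IL18 were as high under miR-183-5p, at 3.80 and 4.11 CPM, and IL33 was not, at 1.53 CPM. The leukocyte marker PTPRC had 9 counts under miR-182-5p and 0 under NC.

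Of 33 mitogen-activated protein kinases and kinases above them, 12 were higher and 3 lower. Over the scalings 5 to 12 were higher and 1 to 4 lower. In the longest quartile of transcripts stand 14 of the 33. MAPK15 (12.1 and 5.98 CPM, ratio 2.02) and MAP3K12 (10.6 and 5.95 CPM, ratio 1.78) were highest. The 3 that were lower are all kinases of the middle tier, MAP2K3 (ratio 0.752), MAP2K2 (0.779) and MAP2K1 (0.794). The median of the group, 0.11, fell below 0 when at least 1000 counts were required. FOXO-activated genes, whose factors are reported targets of miR-182-5p, were higher in 5 of 21 and lower in 1 (median 0.13), and higher in 2 of 21 with TMM or DESeq2 factors, with IRS2 at 1.41 and PDK4 at 0.741. p53 target genes (4 higher and 3 lower of 24), TGF-beta and SMAD signalling (3 and 1 of 22) and Wnt feedback genes (2 and 0 of 19) showed shares of higher members near the background, and the p53 median of 0.03 changed sign with the scaling.

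Zinc finger (ZNF) genes were the largest family, with 272 members, most of them sequence-specific repressors encoded in clusters. Of these 67 (24.6%) were higher and 17 (6.25%) lower, with a median of 0.12; over the scalings 54 to 79 were higher and 12 to 27 lower. ZNF793 (5.35 and 2.25 CPM, ratio 2.38), ZNF345 (6.97 and 3.30 CPM, ratio 2.11) and ZNF461 (6.63 and 3.29 CPM, ratio 2.02) were highest, and ZNF383 (5.79 and 11.7 CPM, ratio 0.493) lowest. ZNF793 passed the count minimum through the miR-182-5p library alone. The family is expressed at a median of 16.4 CPM, near the lowest quartile of level, in which 26% of all genes were higher. Of chromatin genes, lysine methyltransferases and demethylases had 2 higher (1 to 9 over the scalings) and 3 lower of 32, and chromatin remodellers 3 (1 to 5) and 1 (0 to 4) of 26, with medians that changed sign with the scaling. In RNA processing, spliceosomal snRNP and LSM proteins were lower in 17 of 39 (10 to 18 over the scalings) and higher in 3 (median -0.23), and SR proteins and hnRNPs lower in 5 of 24 (4 to 8) and higher in 1.

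**Figure D5:**
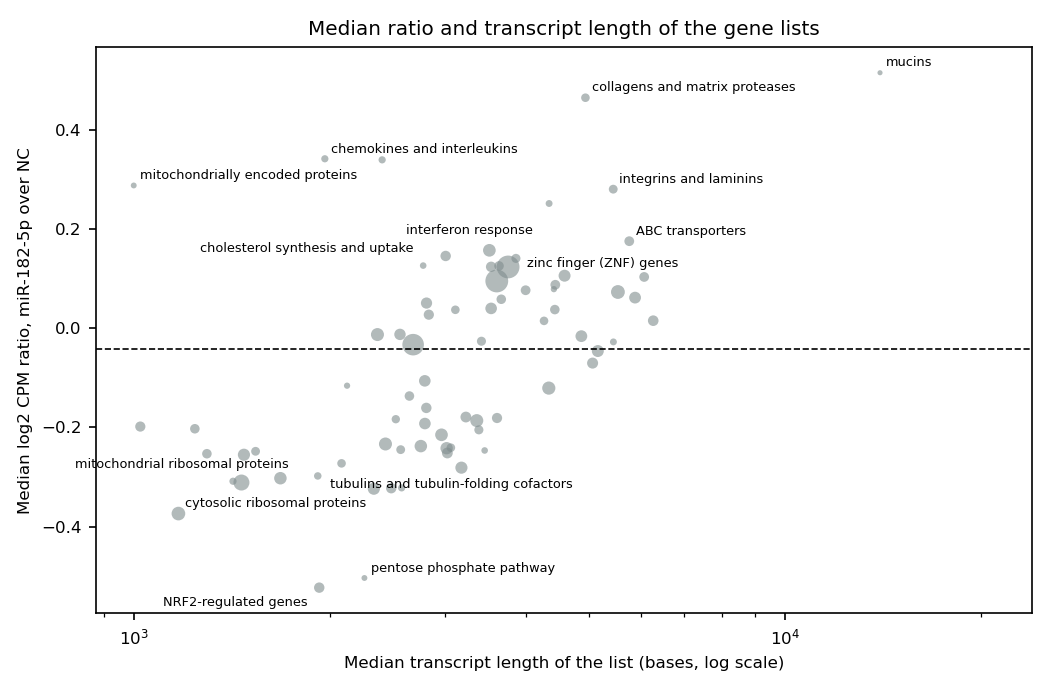
Each point is a gene list, with the median transcript length of its members in bases (log scale, horizontal axis) against their median log2 CPM ratio, miR-182-5p over NC; the point's size stands for the number of members and the dashed line is the median of all 8400 genes. Lists of short genes lie mostly below the line, with the mitochondrially encoded proteins and the chemokines and interleukins above it, and the NRF2 and pentose phosphate genes lie lower than other lists of like length.

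Over the 75 lists with at least 5 members, median log2 length and median log2 ratio had a Pearson r of 0.54 and a Spearman rank correlation of 0.59, given as a description, since the lists share genes and both libraries. The corresponding r for GC content was 0.086. Among the family members named above, MAP3K12 lies opposite PCBP2, GINS2 opposite GSE1, PFDN1 opposite CYSTM1, MRPS25 opposite NR2C2 and RSAD2 opposite CMPK2, each the more highly counted gene of the pair, and ITGA7 and ZNF345 also lie opposite such genes, so their values are uncertain.

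Apart from the aldo-keto reductases described above, the single genes named here at the extremes of ratio had low to moderate levels. FGD4, which activates the GTPase CDC42, had 12.7 CPM under miR-182-5p, 33.0 CPM under NC and 31.9 CPM under miR-183-5p (ratio 0.384, 0.353 to 0.417). The miR-182-5p library alone was low, and the 3′ UTR of FGD4 holds the seed match shown above. Any part of that match in the value was not tested. COX20, an assembly factor of cytochrome c oxidase, had 13.1, 34.2 and 14.3 CPM in the same order and lies opposite HNRNPU, so its reads are uncertain. CEBPA, a transcription factor of hepatocyte and myeloid differentiation, had 5.19 and 10.6 CPM (ratio 0.491), and CPPED1, a phosphatase, 3.71 and 7.10 CPM (ratio 0.523). Seed matches also lie in the 3′ UTRs of CEBPA and AKR1C1. Both genes were below NC under miR-183-5p too, at 6.84 CPM for CEBPA and 84.7 CPM for AKR1C1. PTAFR, the receptor of platelet-activating factor, had 3.11 and 6.51 CPM and passed the count minimum through the NC library alone.

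Upward, LHFPL5 had 1497 counts under miR-182-5p and 60 under NC (ratio 26.1, 20.1 to 34.4), lies opposite SRPK1, and had 20.3 CPM under miR-183-5p. The calcium-binding protein CABP1 had 9.63 CPM under miR-182-5p and 2.79 CPM under NC (ratio 3.45), with 5.68 CPM under miR-183-5p. In contrast NLGN3, a neuronal adhesion protein, had 5.56 CPM under miR-182-5p, 1.71 CPM under NC and 1.81 CPM under miR-183-5p (ratio 3.26). The receptor phosphatase PTPRO had 8.18, 2.62 and 3.46 CPM (ratio 3.12) in that order, and NFATC4, a calcineurin-regulated transcription factor, 8.51, 2.79 and 3.95 CPM (ratio 3.05). BEST1, an anion channel, had 24.3, 8.29 and 4.06 CPM and lies opposite FTH1. LHFPL5, CABP1, NLGN3, PTPRO and NFATC4 passed the count minimum through the miR-182-5p library alone, which favours their direction. In CPM, the largest gain of a nuclear gene was that of SCD, followed by SERPINA1, a protease inhibitor secreted by hepatocytes and epithelia, with 1358 and 995 CPM (ratio 1.37).

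Targets reported for miR-182-5p did not share a direction. Of 35 coding genes on that list 21 could be compared; 4 were higher (2 with TMM or DESeq2 factors) and 3 lower, and the median of 0.04 changed sign with the scaling. The lower ones were HPGD, which inactivates prostaglandins (5.19 and 7.55 CPM, ratio 0.687, 0.595 to 0.793), the actin-binding protein PFN1 (ratio 0.712) and the GTPase RAC1 (180 and 231 CPM, ratio 0.780). HPGD stood at 4.98 CPM under miR-183-5p. The higher ones were OPTN, an autophagy receptor (ratio 1.37), RGS17, a regulator of G-protein signalling (5.51 and 4.17 CPM, ratio 1.32), NDRG1 (ratio 1.27) and MTSS1 (ratio 1.27), which lies opposite NDUFB9. FOXO3, with 2 matches, had 39.7 and 39.8 CPM, a ratio of 0.997 (0.943 to 1.05). Thus the windows shown above belong to genes from 0.384 to 1.32.

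Genes with and without a seed match had medians close to each other. The 1316 genes with at least 1 match in the 3′ UTR had a median of -0.02 with 10.9% lower and 13.6% higher, and the 7060 without one had a median of -0.05 with 15.2% lower and 13.4% higher. The 201 genes with at least 2 matches had a median of 0.03 with 8.96% lower. UTRs with a match were longer (median 2942.5 against 1163.5 bases), and long transcripts were higher as described above. Within quartiles of UTR length the medians with and without a match were -0.20 and -0.10 in the shortest, where only 45 genes held one. They were then -0.089 and -0.069, -0.046 and -0.036, and 0.015 and 0.024. In each quartile the median with a match was the smaller. In the shortest quartile 37.8% of the genes with a match were lower, against 21.0% of those without, and 20% against 14.5% were higher. In the later quartiles the shares lower were 19.4% and 16.8%, 11.3% and 12.7%, and 6.94% and 7.65%. The lowest genes with at least 2 matches after CPPED1 were TSN, a nucleic acid binding protein (47.9 and 68.9 CPM, ratio 0.696), TMEM182 (ratio 0.696), IFFO2 (ratio 0.715), ME2, the mitochondrial malic enzyme (ratio 0.717), and SEPHS1, a relative of selenophosphate synthetase (66.9 and 91.3 CPM, ratio 0.733).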

How the data were processed

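The series holds 1 RNA sequencing library per group from total RNA of QBC-939 cells. The authors deposited whole-number gene counts, and the FPKM values that the authors deposited beside them served as an alternative scale. Per the submitters' processing notes, cutadapt 1.9 and FastQC were used and the build is GRCm38, a mouse assembly, although every gene identifier is a human one of Ensembl. Aligner, counting program and use of strand: not given in the sources used here. Of the identifiers, 97.3% are in GENCODE release 29, whose GRCh38 transcripts gave lengths, GC content and 3′ UTRs.

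CPM is the count over the column total. Ratios carry exact Clopper-Pearson 95% intervals conditional on the sum of both counts. The called genes pass 1.25-fold (ratio at least 1.25 or at most 0.8) with the interval beyond 1. The calling code was checked on simulated Poisson counts with 2-fold changes up or down. That check held no spread between libraries and no changes near 1.25-fold, so it does not show how reliable the calls are. No test between conditions is possible with 1 library each. Python 3.11.15, scipy 1.17.1, edgeR 4.0.16 (TMM factors) and DESeq2 1.42.0 (size factors) were used. The members, the 80 gene lists and the rules were chosen with earlier results of these data known, the NRF2 list among them. Named were the 15 genes highest and the 15 lowest in ratio with at least 5 CPM in 1 library, the 10 largest gains and losses in CPM, up to 3 members at each end of a list, reported targets with a match, and the 6 lowest genes with at least 2 matches. AKR1B10, NQO1, GCLM, MMP14, LAMA5, VEGFA, CA9, IFIT1 and ISG15 were named after their values were seen. Some genes and a gene list are not reported here. Marker lists for bile duct, hepatocyte, fibroblast, endothelium and leukocytes were summed; the 7 hepatocyte genes with rows gave 1404 CPM (miR-182-5p) and 1045 CPM (NC), mostly SERPINA1. Other scalings, count minimums and overlap rules were tried.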

Additional observations from a re-analysis of the deposited data

How the results depend on the processing

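With 1 library per group no library could be left out, and no group of 4 samples exists to look for outlying samples. No paired analysis was possible because each group has 1 library, so a replicate number pairs nothing. No result changed direction past a call under any setting, but for called genes this could hardly have come out otherwise. The scalings moved the median ratio by far less than a call requires, as the values that follow show. Count minimums and overlap rules leave the ratio of a single gene unchanged. The absence of reversals therefore does not show how stable the calls are. Sign changes of list medians, which need not pass a call, are counted at the end of this paragraph. The median log2 ratio of all genes, -0.04, was -0.101 with TMM factors, -0.106 with DESeq2 factors, 0.0138 with totals without mitochondrially encoded genes, -0.0215 with FPKM, -0.0332 with at least 100 counts and -0.0640 with at least 1000. Genes higher at the mildest size numbered 1133, and 629 with at least 1000 counts and 624 without overlap on either strand; genes lower were 1226 and, without overlap, 679. At 1.5-fold the 369 higher genes became 127 (1000 counts) and 197 (no overlap), and the 134 lower genes became 222 (TMM), 234 (DESeq2), 82 (no mitochondrial counts), 75 (1000 counts), 65 (no overlap) and 207 (same-strand overlaps kept). At 2-fold the 66 higher genes became 134 (100 counts), 9 (1000 counts), 34 (no overlap), 105 (overlaps kept) and 26 (at least 200 counts in both libraries, chosen after seeing the data), and the 12 lower genes 6 (no mitochondrial counts), 6 (centred), 19 (100 counts), 4 (1000 counts) and 37 (overlaps kept). Stricter minimums and overlap rules leave fewer genes to call by construction: 6472 with 1000 counts and 4565 without overlap. With DESeq2 factors genes with a seed match had a median of -0.0878 and genes without one -0.111. Of the 75 list medians, 20 changed sign under at least one setting, 16 of them under a scaling; the largest of these was 0.12 in size, and those beyond it kept their sign in every setting that gave a value. Genes near the minimum of 200 counts have the widest counting intervals, which limits what their ratios can show.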

Other observations

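Outside the genes described above, 911 genes without a protein-coding transcript reached 200 counts in 1 of the 2 libraries and were free of same-strand overlap. By the same rule 51.4% were higher under miR-182-5p and 13.3% lower, with a median log2 ratio of 0.34, against 13.5% and 14.6% of the coding genes. At 2-fold, 72 (7.90%) were higher and 5 (0.549%) lower, against 0.786% and 0.143% of the coding genes. The lowest was TSPOAP1-AS1, with 43 counts under miR-182-5p, 2125 under NC and 2257 under miR-183-5p, so the miR-182-5p library alone was low. RPL7AP6, a processed copy of a ribosomal protein gene, had 18.5 CPM under miR-182-5p and 47.3 CPM under NC (ratio 0.391). TRPM2-AS had 315 and 40 counts (ratio 8.23, 5.91 to 11.7) and 201 counts under miR-183-5p.

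Coding genes left out because another gene lies over them on the same strand, 2953 in number, had a median log2 ratio of -0.02, with 16.8% higher and 13.9% lower. Among the 8400 genes compared, those free of overlap on both strands (4565) were higher in 13.7% and lower in 14.9%, and those lying opposite another gene (3835) in 13.3% and 14.3%.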
